A study of Mus musculus with 6 samples.

Results

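A family of 7 genes that carry the Cdkn name, for cyclin-dependent kinase (CDK) inhibitor, was followed in a mouse myeloid leukemia line, MLL-ENL/NrasG12D cells, after inhibition of the arginine methyltransferase PRMT5. They are the 4 INK4 genes (Cdkn2a, Cdkn2b, Cdkn2c and Cdkn2d), the 2 CIP/KIP genes other than p21 (Cdkn1b and Cdkn1c), and Cdkn3. They were chosen by symbol, and all 7 of 7 were among the 11644 genes of the table. Cdkn3 carries the family name but encodes a protein phosphatase that acts on CDK2, so it belongs to neither inhibitor family and is described apart. The cells carry the fusion of MLL with ENL and mutant Nras in both groups. The groups were 3 libraries of polyadenylated RNA from cells given 5 µM EPZ015666, a small molecule inhibitor of PRMT5, for 72 h with a second dose on day 2, and 3 libraries from cells given its solvent DMSO. All libraries come from this 1 line. The labels do not say what was repeated between replicates, so the p-values below measure the spread between these 6 libraries, which may be technical.

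INK4 proteins (p16 and p15, p18 and p19) bind CDK4 and CDK6 and keep D-type cyclins from activating them, so that the RB pocket proteins stay active and hold back the E2F factors that drive entry into S phase. CIP/KIP proteins (p27 and p57, beside p21) bind whole cyclin-CDK complexes, mainly those of CDK2. Cdkn2a also encodes ARF, which is read in another frame from a different starting exon and restrains MDM2, the ubiquitin ligase of p53. In myeloid leukemias CDKN2B is a frequent target of promoter silencing, and p18 and p27 are known in mouse as restraints on the division of blood-forming cells.

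The libraries held between 11335948 and 15551525 reads on genes with the inhibitor and between 15505127 and 19197912 with DMSO. On log2 values, libraries correlated at 0.987 to 0.992 within a group and at 0.951 to 0.962 between groups (across genes, which are not independent replicates), and DMSO library 2 stood apart on the second principal component, which held 8.97% of the variance. All 9 listed markers of myeloid leukemia cells (Ptprc, Kit, Mpo, Cd34, Itgam, Spi1, Cebpa, Hoxa9 and Meis1) were in the table, with summed levels of 34463 to 36885 normalized counts with the inhibitor and 25450 to 27827 with DMSO. The markers did not move as one. Itgam (3.79 times), Cd34 (1.52 times), Hoxa9 and Spi1 rose, Mpo (0.404 times) and Cebpa (0.689 times) fell, and Kit (0.827 times), Ptprc and Meis1 did not pass, so the sum follows the abundant Itgam and Cd34. With 1 library left out, Mpo passed in 3 and Spi1 in 1 of 6 settings. The groups of Mpo overlapped, with 1438, 371 and 731 normalized counts in the DMSO libraries and 292 to 408 with the inhibitor. Spi1 did not pass with edgeR's quasi-likelihood test (adjusted p = 0.0544). The part of these marker changes in the results below was not tested. None of 5 T cell and 5 erythroid markers was in it. Of 5 B cell markers Cd79b alone was in the table, of 5 fibroblast markers Pdgfrb, and of 4 endothelial markers Cdh5, at 5.59 to 18.3 normalized counts with the inhibitor against 5.89 to 11.3 with DMSO, and Pecam1, which myeloid cells also express. A normalized count is a read count divided by a size factor of the library. In bulk RNA, fewer cells of a kind and less RNA per cell cannot be told apart.

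The sequences upstream of the genes that moved most are shown because Cdkn2a and Cdkn2b, neighbours on chromosome 4, changed in the same direction and Cdkn3 in the other. Each is the 200 bases from 250 to 51 before a RefSeq start (GRCm38.p6, 5′ to 3′ along the gene). Capitals mark matches on either strand to an E2F motif (TTTCCCGC, TTTGGCGC or TTTCGCGC), the CHR element of cell cycle genes (TTTGAA), the CCAAT box (CCAAT) and the GC box (GGGCGG), with no overlap between matches in these windows.
Cdkn2a, ARF start, chr4:89294670-89294869, minus strand: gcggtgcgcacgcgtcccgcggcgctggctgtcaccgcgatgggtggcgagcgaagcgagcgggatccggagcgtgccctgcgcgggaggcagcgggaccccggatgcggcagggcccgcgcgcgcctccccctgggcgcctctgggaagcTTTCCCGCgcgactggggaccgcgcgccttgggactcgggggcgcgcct
Cdkn2a, p16 start, chr4:89282243-89282442, minus strand: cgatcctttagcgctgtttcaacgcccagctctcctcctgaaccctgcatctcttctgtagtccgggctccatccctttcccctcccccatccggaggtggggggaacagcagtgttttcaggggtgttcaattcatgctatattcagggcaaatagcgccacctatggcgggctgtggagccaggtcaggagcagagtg
Cdkn2b, chr4:89311083-89311282, minus strand: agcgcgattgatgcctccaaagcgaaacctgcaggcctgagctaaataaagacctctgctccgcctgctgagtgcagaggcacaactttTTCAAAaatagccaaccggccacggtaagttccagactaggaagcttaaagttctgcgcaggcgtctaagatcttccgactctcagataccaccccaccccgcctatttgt
Cdkn3, chr14:46760291-46760490, plus strand: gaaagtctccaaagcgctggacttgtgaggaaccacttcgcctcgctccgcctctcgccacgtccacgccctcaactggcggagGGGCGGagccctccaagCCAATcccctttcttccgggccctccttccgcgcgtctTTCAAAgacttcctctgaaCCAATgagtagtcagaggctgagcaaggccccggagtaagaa
The ARF window held an E2F match, beginning 99 bases before the start, as did 1.22% of 32851 windows of the same length. The p16 window held no match to these letters. The windows of Cdkn2b and Cdkn3 each held a CHR match (13.6% of windows), 161 and 111 bases before the start. Cdkn3 also held 2 CCAAT boxes (28.4% of windows hold at least 1) and a GC box (24.6%). The base composition differed, with 79.0% G and C in the ARF window, 57.5% in the p16 window, 52.0% in Cdkn2b and 60.5% in Cdkn3. These matches describe letters, and binding was not measured.

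With the inhibitor, 2 of the 7 genes rose, Cdkn2a and Cdkn2b, and 2 fell, Cdkn2c and Cdkn3. Cdkn2d, Cdkn1b and Cdkn1c did not pass the test (limma on log2 of the normalized count + 1, adjusted p under 0.05 over all genes). Over all 11644 genes the same test called 46.5% (23.6% higher and 22.9% lower), so 4 of 7 (57.1%) lies near that share. The groups did not overlap for 5 of the 7, against 56.0% of all genes (28.2% higher and 27.9% lower). The median log2 fold change of the 7 was 0.22, and that of all genes 0.00. edgeR's quasi-likelihood test on the recovered reads, which called 46.5% of genes (22.3% higher and 24.2% lower), also gave 2 members higher and 2 lower. On the log2 scale the changes of the members ran from -1.06 (Cdkn3) to 2.91 (Cdkn2b).

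**Figure D1:**
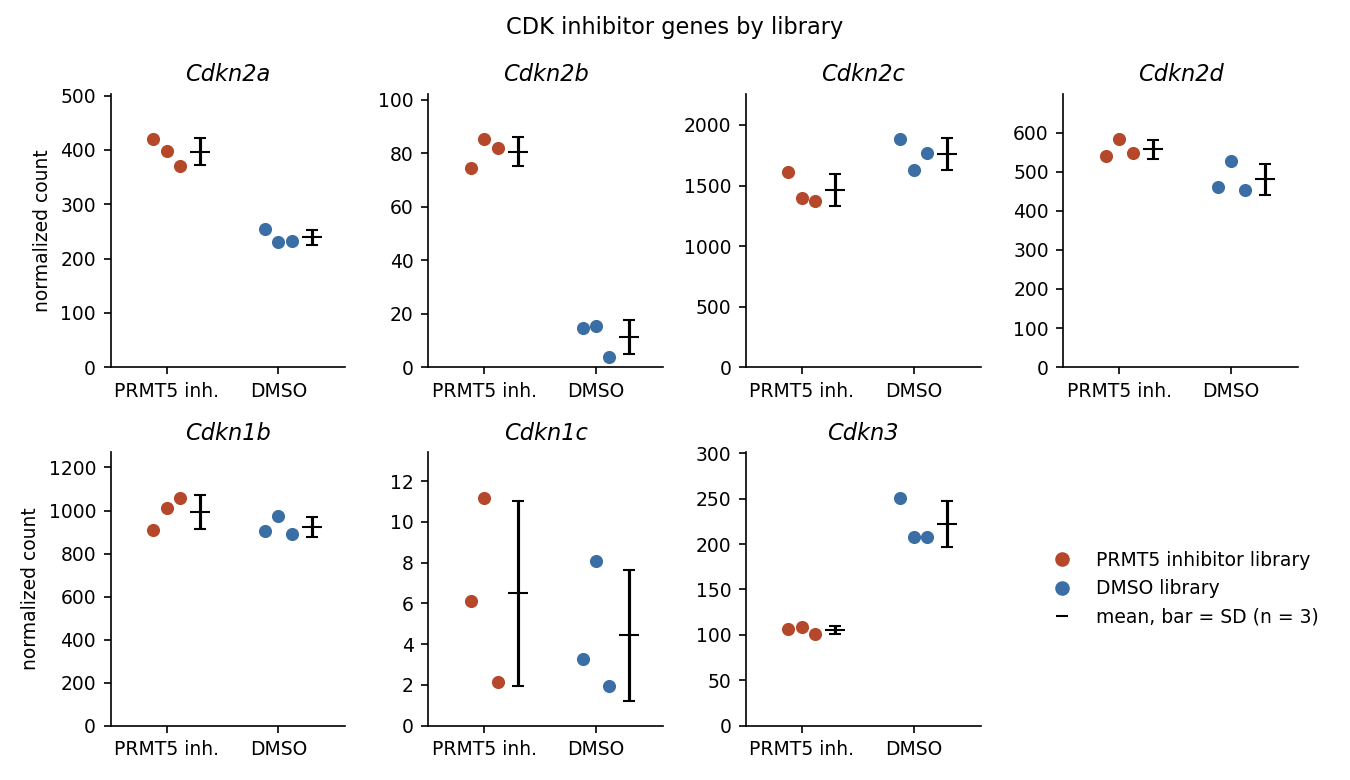
Normalized count of each gene in each library, on a linear axis from 0 that differs between panels. Points are libraries, and bars beside them the mean and SD of 3. The groups are apart for Cdkn2a, Cdkn2b, Cdkn2c, Cdkn2d and Cdkn3, and overlap for Cdkn1b and Cdkn1c.

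Cdkn2b encodes p15, the INK4 protein that transforming growth factor beta is known to induce. It lies on chromosome 4 from 89306299 to 89311039 on the minus strand (mm10). It stood at 74.6, 85.3 and 81.8 normalized counts in the inhibitor libraries, against 14.7, 15.3 and 3.93 in the DMSO libraries. All 3 inhibitor libraries lay far above all 3 DMSO libraries, and DMSO library 3 was lowest. The means were 80.6 ± 5.47 with the inhibitor and 11.3 ± 6.41 with DMSO (SD, n = 3 each), a ratio of 7.12. The log2 fold change was 2.91 ± 0.40 (SE; 95% interval 2.04 to 3.79; limma adjusted p = 1.33e-04). By that change it was the 123rd highest of all genes. The values rest on few reads, 210 over the inhibitor libraries (exact Poisson interval 183 to 240 at 95%) and 41 over the DMSO libraries (29.4 to 55.6), where the intervals cover counting error only. Without DMSO library 3 the log2 fold change was 2.35 (limma adjusted p = 1.84e-05), and without DMSO library 2 it was 3.21.

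Cdkn2a, the gene of p16 and ARF, lies next to Cdkn2b, from 89274471 to 89294653 on the same strand, with 11.6 kb between them. It stood at 420, 399 and 370 normalized counts with the inhibitor, against 255, 230 and 232 with DMSO. The lowest inhibitor library was well above the highest DMSO library. The mean was 396 ± 24.9 with the inhibitor and 239 ± 14.1 with DMSO (SD, n = 3 each), a rise of 1.66 times. On the log2 scale this was 0.73 ± 0.10 (SE), with a limma adjusted p of 1.91e-04. The annotation gives the gene 2 coding transcripts. One begins at 89294653 (ARF) and the other at 89282192 (p16), and both use the coding stretch from 89276669 to 89276985 in different frames. The table has 1 value for the gene, so the rise cannot be assigned to p16 or to ARF.

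Cdkn2c, which encodes p18, was the INK4 gene with the highest level, and it fell. It lies on chromosome 4 from 109660876 to 109667189, minus strand. It stood at 1611, 1396 and 1376 normalized counts with the inhibitor, against 1883, 1624 and 1770 with DMSO. The groups were narrowly apart, as inhibitor library 1 lay just below DMSO library 2. The mean was 1461 ± 130.2 with the inhibitor and 1759 ± 129.9 with DMSO (SD, n = 3 each; log2 fold change -0.27 ± 0.09 SE, limma adjusted p = 0.0300). This call depended on single libraries. Leaving out DMSO library 1 gave a limma adjusted p of 0.119, DMSO library 3 one of 0.0804, inhibitor library 2 one of 0.116 and inhibitor library 3 one of 0.0834.

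Cdkn2d, which encodes the INK4 protein p19 (not ARF), lies on chromosome 9 from 21288410 to 21291407, minus strand. It stood at 539, 583 and 548 normalized counts with the inhibitor, against 460, 526 and 454 with DMSO. The groups did not overlap, with DMSO library 2 closest to the inhibitor libraries. The mean was 557 ± 23.2 with the inhibitor and 480 ± 40.3 with DMSO, and the log2 fold change of 0.22 ± 0.10 (SE, n = 3 each) missed the threshold (limma adjusted p = 0.0829). Its 95% interval, unadjusted, was a change of 1.01 to 1.34 times. Without DMSO library 2 the log2 fold change was 0.28 and passed (limma adjusted p = 0.0351).

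**Figure D2:**
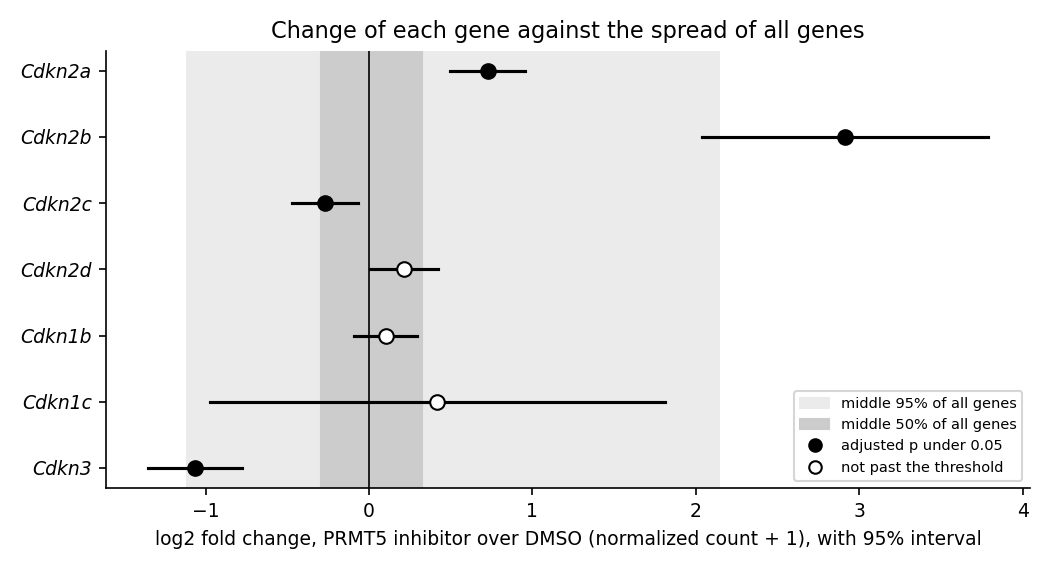
Log2 fold change of each gene, inhibitor over DMSO, with its 95% interval (limma; x axis). Filled points passed the threshold, and grey bands hold the middle 95% (-1.11 to 2.14) and 50% (-0.30 to 0.33) of all 11644 genes. Cdkn2b lies outside the wider band, and Cdkn3, at -1.06, near its lower edge.

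Cdkn1b encodes p27, a CIP/KIP inhibitor whose amount is known to be set largely by protein turnover, which RNA does not show. It lies on chromosome 6 from 134920401 to 134925513, plus strand. It stood at 908, 1012 and 1060 normalized counts with the inhibitor, against 903, 977 and 891 with DMSO. Inhibitor library 1 lay within the DMSO range, so the groups overlapped. The mean was 994 ± 77.7 with the inhibitor and 924 ± 46.5 with DMSO, and the log2 fold change of 0.10 ± 0.09 (SE, n = 3 each) did not pass (limma adjusted p = 0.357). The 95% interval ran from 0.94 to 1.23 times.

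Cdkn1c encodes p57, the imprinted CIP/KIP member that keeps adult blood stem cells quiescent in mouse. It lies on chromosome 7 from 143458339 to 143461050, minus strand. It had 6, 8 and 2 reads in the inhibitor libraries, against 4, 10 and 2 in the DMSO libraries. These are 6.13, 11.2 and 2.15 normalized counts with the inhibitor, against 3.26, 8.07 and 1.96 with DMSO. The groups overlapped over nearly their whole range, and each group had 16 reads in all. A change was not detectable at this depth (log2 fold change 0.42 ± 0.64 SE, n = 3 each, limma adjusted p = 0.613; 95% interval 0.51 to 3.51 times). An antisense gene, Gm44732, covers 625 bp of its exons, so some of these few reads could belong to it if counting did not use strand.

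Cdkn3, which encodes the CDK-associated phosphatase KAP, was the member that fell most. It lies on chromosome 14 from 46760541 to 46771669, plus strand. It stood at 106, 109 and 101 normalized counts with the inhibitor, against 251, 207 and 208 with DMSO. The inhibitor libraries lay close together and below every DMSO library. The mean was 105 ± 4.01 with the inhibitor and 222 ± 25.01 with DMSO (SD, n = 3 each), so that the inhibitor level was 47.5% of that with DMSO. On the log2 scale the change was -1.06 ± 0.13 (SE), with a limma adjusted p of 6.40e-05. By change it was the 335th lowest of all genes. Its call held with each library left out, with log2 fold changes of -1.11 to -0.97.

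**Figure D3:**
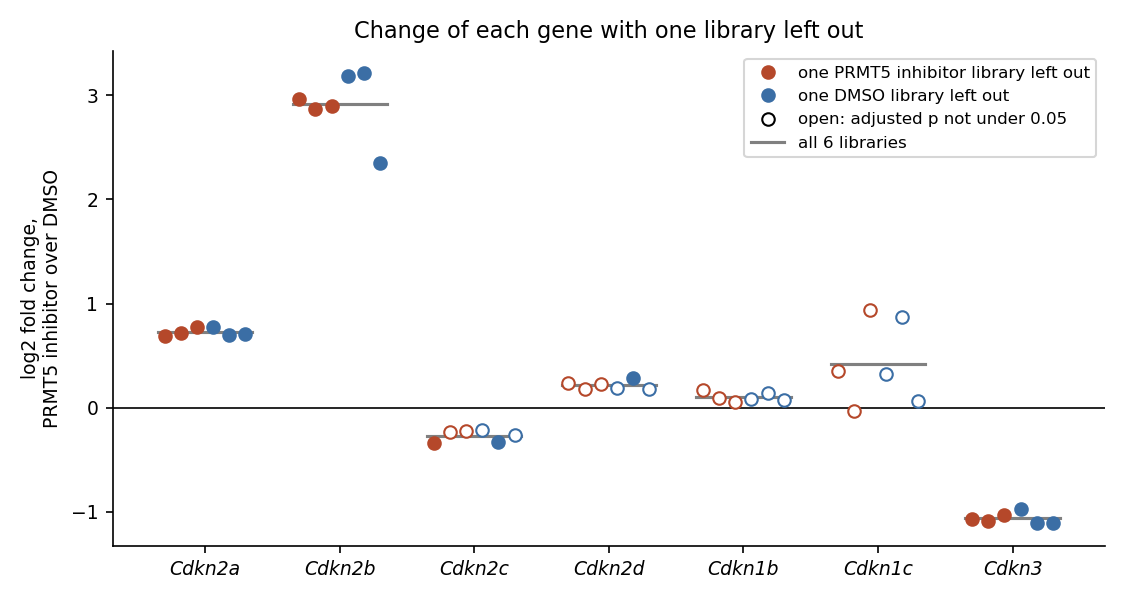
Log2 fold change of each gene with 1 library left out (points, coloured by the group of that library) and with all 6 (grey line). Filled points passed the threshold. Cdkn2a, Cdkn2b and Cdkn3 passed in all 6 settings, Cdkn2c in 2, Cdkn2d in 1, and Cdkn1b and Cdkn1c in none.

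Levels of different genes were set side by side as normalized counts per kb of exon, using all annotated exons of a gene. With the inhibitor the order of levels was Cdkn2c (544 ± 48.5 per kb), Cdkn2d (354 ± 14.8), Cdkn2a (338 ± 21.2), Cdkn1b (218 ± 17.1), Cdkn2b (58.0 ± 3.94), Cdkn3 (44.5 ± 1.69) and Cdkn1c (3.18 ± 2.22). With DMSO it was Cdkn2c (655 ± 48.4 per kb), Cdkn2d (305 ± 25.6), Cdkn2a (204 ± 11.99), Cdkn1b (203 ± 10.2), Cdkn3 (93.7 ± 10.5), Cdkn2b (8.14 ± 4.61) and Cdkn1c (2.17 ± 1.58; SD, n = 3 each). Per kb, Cdkn2b thus stood above Cdkn3 with the inhibitor and below it with DMSO. That switch depends on the exon lengths used, 1.39 kb for Cdkn2b and 2.371 kb for Cdkn3, whose 4 annotated transcripts were all included. Before division by length, Cdkn3 was the higher of the pair with the inhibitor too (105 against 80.6 normalized counts). The levels of Cdkn2d and Cdkn2a with the inhibitor, and those of Cdkn2a and Cdkn1b with DMSO, differed by less than the spread between libraries. Because the 2 starting exons of Cdkn2a are both in its exon length, its level per kb is understated.

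The mix of transcripts from the 4 INK4 genes differed more than their sum. The level of Cdkn2a includes any ARF transcripts, which do not encode an INK4 protein. Its share and the sum are therefore not known to be of INK4 transcripts alone. The 4 INK4 genes together held 1294 ± 59.6 normalized counts per kb with the inhibitor and 1172 ± 43.0 with DMSO (SD, n = 3 each), with ranges of 1235 to 1354 with the inhibitor and 1146 to 1222 with DMSO. Of this sum Cdkn2a held 26.1% ± 0.48 with the inhibitor and 17.4% ± 0.38 with DMSO. Cdkn2b held 4.49% ± 0.46 with the inhibitor and 0.691% ± 0.39 with DMSO. The share of Cdkn2c was 42.0% ± 2.08 with the inhibitor and 55.9% ± 2.69 with DMSO, and that of Cdkn2d 27.4% ± 1.82 with the inhibitor and 26.1% ± 2.75 with DMSO. Per 100 units of Cdkn2a there were 14.98 to 18.6 of Cdkn2b in the inhibitor libraries, against 1.43 to 5.62 in the DMSO libraries, so that ratio was itself higher in every inhibitor library. Per 100 units of Cdkn2c there were 59.7 to 65.4 of Cdkn2a with the inhibitor, against 30.0 to 32.5 with DMSO. These sums and shares are descriptions, and no test was made of them.

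**Figure D4:**
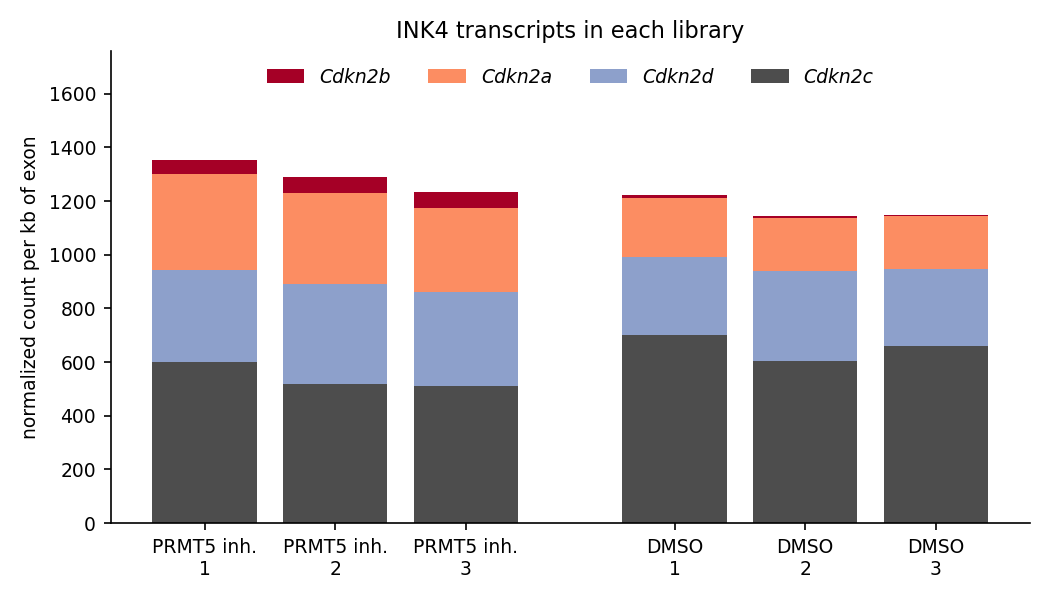
Stacked levels of the 4 INK4 genes in each library, in normalized counts per kb of exon (bars start at 0). The part of Cdkn2a includes any ARF transcripts. The whole bars reach 1235 to 1354 with the inhibitor and 1146 to 1222 with DMSO, and the parts of Cdkn2a and Cdkn2b are larger in the 3 inhibitor libraries.

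Around the Cdkn2a and Cdkn2b pair, 5 of the 39 protein-coding genes that start within 1000 kb of the Cdkn2b start were in the table. Mtap, the methylthioadenosine phosphorylase whose substrate is known to inhibit PRMT5, is the next measured gene, 93.4 kb from Cdkn2a. It stood at 1014, 1025 and 834 normalized counts with the inhibitor, against 695, 575 and 579 with DMSO. The groups were apart, and the log2 fold change was 0.63 ± 0.11 (SE, n = 3 each; limma adjusted p = 6.51e-04), close in size to that of Cdkn2a. Farther away, Klhl9, an adaptor of a CUL3 ubiquitin ligase, fell (2789 ± 254 with the inhibitor and 3456 ± 249 with DMSO; limma adjusted p = 0.0162). Hacd4, a gene of fatty acid elongation with few reads, rose (18.5 ± 5.81 with the inhibitor and 7.01 ± 2.60 with DMSO; limma adjusted p = 0.0213). Klhl9 no longer passed when DMSO library 1 or inhibitor library 3 was left out, nor Hacd4 when DMSO library 2, inhibitor library 2 or inhibitor library 3 was, nor with DESeq2 (adjusted p = 0.0509).

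**Figure D5:**
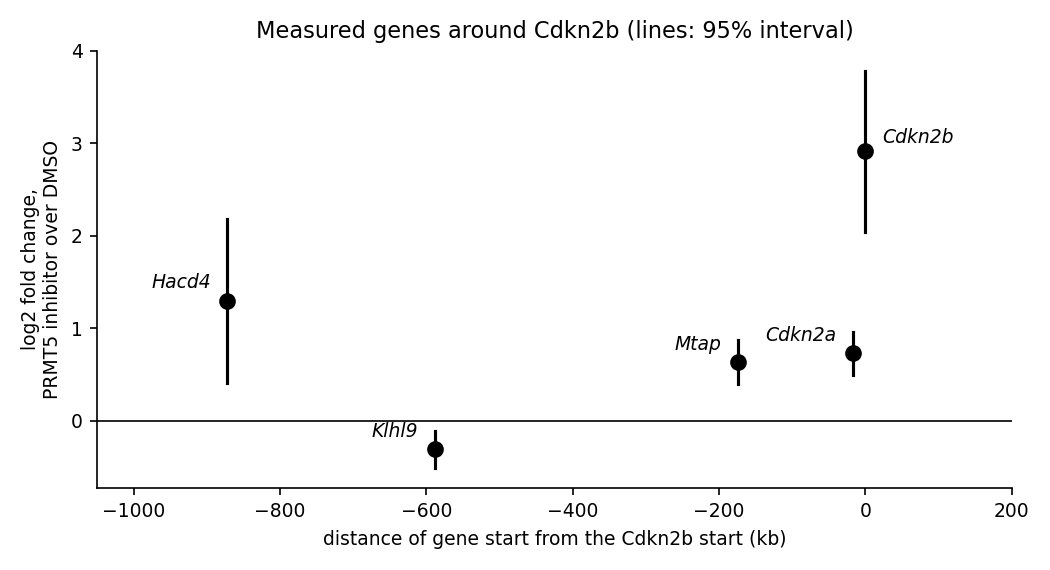
Log2 fold change, inhibitor over DMSO, of the 5 measured genes around Cdkn2b by distance of their starts in kb, with 95% intervals (limma). Cdkn2b, Cdkn2a, Mtap and Hacd4 lie above 0 and Klhl9 below it, all past the threshold, which 46.5% of all 11644 genes passed. With 1 library left out, Hacd4 passed in 3 and Klhl9 in 4 of 6 settings.

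Beside the other members, Cdkn2d has Ap1m2, an adaptor subunit of vesicle transport, 2.87 kb away, which rose 3.36 times (150.5 ± 28.7 with the inhibitor and 44.8 ± 14.3 with DMSO; limma adjusted p = 8.21e-05), and Kri1, 0.441 kb away (1283 ± 146 with the inhibitor and 1294 ± 30.9 with DMSO; limma adjusted p = 0.894). Both neighbours of Cdkn2c, Faf1 (3277 ± 242 with the inhibitor and 2482 ± 334 with DMSO; limma adjusted p = 0.00678) and Rnf11 (869 ± 100.3 with the inhibitor and 551 ± 26.3 with DMSO; limma adjusted p = 2.80e-04), rose, unlike Cdkn2c itself. Next to Cdkn3, Cnih1 rose (1959 ± 167 with the inhibitor and 1532 ± 73.5 with DMSO; limma adjusted p = 0.00600). The neighbours of Cdkn1b (2810454H06Rik and Apold1) and of Cdkn1c (Nap1l4 and Kcnq1ot1) did not pass. Kcnq1ot1, the antisense RNA of the imprinted domain that holds Cdkn1c, stood at 5346 in DMSO library 3, against 1205 and 1387 in the other DMSO libraries and 1316 to 2247 with the inhibitor. Without DMSO library 3 its log2 fold change was 0.52 and passed (limma adjusted p = 0.0449).

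The proteins that INK4 and CIP/KIP inhibitors bind are cyclins and CDKs of the G1 and S phases. Of 10 such genes, 2 rose and 4 fell, against the 46.5% of all genes called, with a median log2 fold change of -0.17 (0.00 over all genes). The count of falls was 1 without DMSO library 1 and 2 without inhibitor library 2 or 3. Ccnd1, cyclin D1, rose to 22346, 20645 and 18796 normalized counts with the inhibitor, against 7503, 8787 and 7714 with DMSO (limma adjusted p = 2.32e-06). Cdk4, its partner and the kinase that INK4 proteins bind, fell (6220 ± 225 with the inhibitor and 7626 ± 457.5 with DMSO; limma adjusted p = 0.0156), which did not hold when DMSO library 1 or inhibitor library 2 was left out. Cdk6 (4101 ± 209.7 with the inhibitor and 4682 ± 415 with DMSO), Ccnd2 (5001 ± 515 with the inhibitor and 5034 ± 71.6 with DMSO) and Ccnd3 (2760 ± 296 with the inhibitor and 2812 ± 248 with DMSO) did not pass. Ccne2, a partner of CDK2, rose (1822 ± 205 with the inhibitor and 1139 ± 192 with DMSO; limma adjusted p = 8.81e-04), and Ccna2, cyclin A2, fell (3182 ± 344 with the inhibitor and 4619 ± 390.3 with DMSO; limma adjusted p = 9.99e-04). Cdk2 itself fell (1867 ± 129 with the inhibitor and 2172 ± 80.4 with DMSO, limma adjusted p = 0.0433). So did Cdk1 (2552 ± 173 with the inhibitor and 3087 ± 169 with DMSO, limma adjusted p = 0.0183). With 1 library left out, Cdk2 passed in 2 and Cdk1 in 4 of 6 settings.

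Downstream, 7 of 13 RB pocket protein and E2F genes fell and 0 rose, beside 22.9% lower and 23.6% higher over all genes, with a median log2 fold change of -0.31 (edgeR also called 0 higher, and 0 were higher at an unadjusted p under 0.05 in limma). Without inhibitor library 3, Rb1 passed as higher. Tfdp2, a dimer partner of E2F factors, fell most (385 ± 21.6 normalized counts with the inhibitor and 988 ± 40.5 with DMSO; limma adjusted p = 5.35e-07). The repressive E2f8 (626 ± 43.1 with the inhibitor and 1064 ± 82.4 with DMSO; limma adjusted p = 5.43e-05) and E2f6 (711 ± 5.97 with the inhibitor and 956 ± 54.7 with DMSO; limma adjusted p = 0.00138) fell as well. So did Rbl1, the pocket protein p107 (1522 ± 87.0 with the inhibitor and 2014 ± 135 with DMSO; limma adjusted p = 0.00219), whereas Rb1 itself had 1103 ± 121 with the inhibitor and 960 ± 76.6 with DMSO and did not pass. E2f1 also fell (427 ± 38.4 with the inhibitor and 532 ± 75.1 with DMSO, limma adjusted p = 0.0460). So did E2f2 (349 ± 28.6 with the inhibitor and 454 ± 26.8 with DMSO, limma adjusted p = 0.00977). E2f4 fell too (519 ± 24.7 with the inhibitor and 653 ± 22.2 with DMSO, limma adjusted p = 0.00840). With 1 library left out, E2f1 passed in 2, E2f2 in 5 and E2f4 in 6 of 6 settings.

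Among 9 genes of p27 turnover, 2 rose and 3 fell, near the 46.5% called over all genes, with a median log2 fold change of -0.16. Cks1b, the cofactor with which the SKP2 ubiquitin ligase recognises p27, fell (1461 ± 13.7 normalized counts with the inhibitor and 1992 ± 116 with DMSO; limma adjusted p = 6.89e-04). Rbx1, the RING subunit of that ligase, rose (1712 ± 76.4 with the inhibitor and 1246 ± 85.4 with DMSO; limma adjusted p = 8.93e-04). Skp1a, its adaptor, also rose, and Fzr1, an activator of the anaphase-promoting complex, fell. But neither passed once DMSO library 3 or inhibitor library 2 was omitted, nor Skp1a once DMSO library 2 and Fzr1 once DMSO library 1 was. The third fall was Skp2 itself (725 ± 40.9 with the inhibitor and 887 ± 124 with DMSO, limma adjusted p = 0.0476). With 1 library left out, Skp2 passed in 1 of 6 settings.

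Of 14 listed regulators of the Cdkn2a and Cdkn2b locus, 11 were in the table, of which 2 rose and 1 fell (median log2 fold change -0.06), a smaller share than the 46.5% called over all genes. Cbx7, a Polycomb protein that represses the locus in mouse fibroblasts, fell to 96.0, 102 and 139 normalized counts with the inhibitor, against 179, 225 and 208 with DMSO (limma adjusted p = 0.00115). The groups did not overlap. Eed, a core subunit of the complex that methylates lysine 27 of histone H3, rose (1521 ± 92.8 with the inhibitor and 1181 ± 75.6 with DMSO; limma adjusted p = 0.00421), and Ezh2 (2162 ± 197 with the inhibitor and 2027 ± 70.9 with DMSO), Suz12 (4622 ± 368 with the inhibitor and 5031 ± 233 with DMSO) and Bmi1 (1668 ± 51.0 with the inhibitor and 1733 ± 9.77 with DMSO) did not pass. Dmtf1, an activator of ARF transcription, rose (1233 ± 45.7 with the inhibitor and 1037 ± 30.2 with DMSO; limma adjusted p = 0.0203), which did not pass when DMSO library 1, DMSO library 3 or inhibitor library 2 was left out. Id1 did not pass (17.1 ± 3.93 with the inhibitor and 10.5 ± 2.31 with DMSO).

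Known regulators of single members were counted in the same way. Of 9 genes of the TGF-beta and MIZ1 control of Cdkn2b, 2 rose and 3 fell (median log2 fold change -0.03), near the 46.5% called over all genes. Myc, which together with MIZ1 represses Cdkn2b, fell to 2505, 2113 and 2120 normalized counts with the inhibitor, against 4781, 4768 and 4573 with DMSO (limma adjusted p = 3.06e-06), and Sp1 fell as well (2551 ± 288 with the inhibitor and 3440 ± 189 with DMSO; limma adjusted p = 0.00283). Zbtb17, which encodes MIZ1, rose (989.9 ± 54.5 with the inhibitor and 818 ± 53.5 with DMSO; limma adjusted p = 0.0217), as did the receptor Tgfbr1 (1825 ± 128 with the inhibitor and 1470 ± 123 with DMSO; limma adjusted p = 0.0130). Both missed the threshold once DMSO library 1 or DMSO library 3 was omitted, Zbtb17 also once either inhibitor library 1 or inhibitor library 3 was, and Tgfbr1 once inhibitor library 2 was. The remaining fall was Smad3 (969 ± 73.4 with the inhibitor and 1197 ± 173 with DMSO, limma adjusted p = 0.0396). Smad3 passed in 2 of 6 settings with 1 library left out.

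Menin and MLL maintain Cdkn1b and Cdkn2c in mouse endocrine cells, and FOXO factors induce Cdkn1b. Of 7 genes of this group, 2 rose and 2 fell (median log2 fold change -0.21), again near 46.5%. Psip1, which tethers menin and MLL to chromatin, fell (1256 ± 238 normalized counts with the inhibitor and 2115 ± 211 with DMSO; limma adjusted p = 4.64e-04), and so did Foxo4 (199 ± 24.9 with the inhibitor and 343 ± 26.1 with DMSO; limma adjusted p = 3.33e-04). Foxo3 rose (1292 ± 70.1 with the inhibitor and 1001 ± 57.7 with DMSO; limma adjusted p = 0.00363). Men1 did not pass (1071 ± 76.8 with the inhibitor and 1238 ± 134 with DMSO). Kmt2a, the MLL gene, rose (1833 ± 437 with the inhibitor and 1241 ± 322.5 with DMSO; limma adjusted p = 0.0277) although its groups overlapped. It did not pass with DESeq2 (adjusted p = 0.109), nor when DMSO library 1, inhibitor library 2 or inhibitor library 3 was left out. The cells also carry the fusion of MLL with ENL. Whether reads of the fusion count toward the Kmt2a value was not tested.

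On the ARF side, Mdm2 rose 3.74 times (5962 ± 264 normalized counts with the inhibitor and 1595 ± 245 with DMSO; limma adjusted p = 1.56e-07). Cdkn1a, the p21 gene and the remaining CIP/KIP member, rose 4.92 times (2999 ± 201 with the inhibitor and 610.0 ± 143 with DMSO; limma adjusted p = 2.30e-07). Trp53, the p53 gene, had 1643 ± 57.2 normalized counts with the inhibitor and 1639 ± 71.7 with DMSO (limma adjusted p = 0.969), and Npm1, which holds ARF in the nucleolus, 29066 ± 2688 with the inhibitor and 26138 ± 1499 with DMSO (limma adjusted p = 0.330). Cdkn2a, Mdm2 and Cdkn1a thus all rose, while the Trp53 transcript did not pass the test. A link between these changes was not tested.

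As a description, genes with a pattern of log2 values over the 6 libraries most like that of each member were sought. The search covered 9100 genes with a mean of at least 100 normalized counts. The measure was Pearson's r over 6 points, which form 2 groups of 3, and no p is given. It compares the pattern and not the size of change. The 3 genes named for Cdkn2b had log2 fold changes of 0.27 to 0.48, against 2.91 for Cdkn2b. For Cdkn2a they were Aprt, Alas1 and Ei24 (r of 0.998 to 0.9995), and for Cdkn2b Xrcc4, Lrpap1 and Pcmt1 (0.992 to 0.997). For Cdkn2c they were Nolc1, Tob2 and Plk1 (0.996 to 0.997), and for Cdkn3 Wdr76, Flt3 and Ogfrl1 (0.997 to 0.998). For Cdkn2d they were Riok3, Kpna4 and Avl9 (0.994 to 0.995), and for Cdkn1b Selk, Unc50 and Il10ra (0.984 to 0.990). Cdkn1c, with a mean under 20 normalized counts, was left out.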

How the data were processed

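Libraries were made from polyadenylated RNA with a stranded kit, per the labels' protocols. Without giving roles, the submitters' processing notes list the build mm10 and the tools DESeq 1.16.0, HTSeq 0.6.0, TopHat2 2.0.10 and CASAVA 1.8.2. The strand setting and annotation behind the counts are not stated there. The authors deposited 1 table of normalized signal: read counts per gene divided by a size factor of each library, from 0.715 to 1.24. The size factors were inferred from the smallest positive value of each library. Multiplied by them, 100% of values were whole numbers within a tolerance of 1e-06, and these were taken as the recovered reads. All genes of the table reach 10 reads or more in some library, and none was removed.

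Groups and replicate numbers came from the sample titles. The two-sided comparison used limma 3.58.1 in R 4.3.3 (limma-trend), fitted to every gene as log2(normalized count + 1). Its p-values were adjusted by Benjamini-Hochberg, and 0.05 was the threshold. A larger added count (pseudocount) makes changes of low genes smaller. For Cdkn2b the log2 fold change was 2.99 with a pseudocount of 0.5, 2.91 with 1 and 2.48 with 5. It was 2.76 with edgeR and 2.80 with DESeq2, so the limma value was not below theirs. Means and ratios are of normalized counts. edgeR 4.0.16 (5412 genes called, limma 5418), DESeq2 1.42.0 and limma-voom on the recovered reads, other pseudocounts and scalings, a filter on low levels, a replicate block and leaving out each library were run as alternatives. As a check of the code, the fit was run on simulated data with far fewer changed genes. Its error rates there do not carry over to these data. No libraries of a group agreed within sampling noise (chi-square per degree of freedom of 9.43 to 20.7), so none was counted as a duplicate.

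Coordinates and exon lengths are from GENCODE mouse release M21 (mm10), matched by symbol for 11215 genes (96.3%). Promoter windows are from RefSeq, with 8 sequences for 6 of the 7 genes.

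The members and gene lists were chosen with earlier results of these data known. Genes were named by this rule: all members; from each list up to 4 with the smallest adjusted p; Cdkn1a, Mdm2, Trp53, Npm1, Myc and Mtap; the nearest measured gene on each side of a member within 200 kb; and the 3 genes with the most similar pattern. Cdk1, Cdk2, Cdk6, Ccnd2, Ccnd3, Rb1, E2f1, E2f2, E2f4, Skp2, Smad3, Ezh2, Suz12, Bmi1 and Men1, and the 2 distant genes of the locus, were chosen after their values were seen.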

Additional observations from a re-analysis of the deposited data

How the results depend on the processing

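Under 9 alternatives of scaling, test, pseudocount, filter and block, the calls on the 7 genes stayed as reported, except that a minimum mean of 100 normalized counts removed Cdkn2b and Cdkn1c from the test and left 1 member called higher. Leaving out each library in turn gave log2 fold changes of 0.06 to 0.17 for Cdkn1b, -0.035 (without inhibitor library 2, a reversed sign) to 0.94 for Cdkn1c, 0.68 to 0.77 for Cdkn2a, 2.35 to 3.21 for Cdkn2b, -0.34 to -0.22 for Cdkn2c, 0.18 to 0.28 for Cdkn2d and -1.11 to -0.97 for Cdkn3. Then 2 to 3 members were called higher and 1 to 2 lower, and 4145 to 5346 genes were called in all. Over the lists, 1 to 4 kinases and cyclins were lower, 0 to 1 RB and E2F genes higher, 1 to 3 genes of p27 turnover higher and 1 to 3 lower, 1 to 3 locus regulators higher, 1 to 2 menin, MLL and FOXO genes higher and 0 to 3 TGF-beta and MIZ1 genes higher. With DESeq2 1 menin, MLL and FOXO gene was higher in place of 2; the cause was not tested. The log2 fold change of Trp53, close to 0, reversed to -0.018 with TMM scaling, edgeR (-0.0175) and limma-voom (-0.0177). With a library left out, ranges that crossed 0 were -0.0232 to 0.0383 for Trp53, -0.46 to 0.22 for 2810454H06Rik, -0.55 to 0.52 for Kcnq1ot1, -0.11 to 0.0319 for Kri1, -0.0902 to 0.0578 for Ccnd2, -0.11 to 0.0434 for Ccnd3, -0.0327 to 0.0433 for Ptprc, -0.016 to 0.76 for Cdh5 and -0.55 to 0.17 for Pdgfrb, none of which passed with all 6 libraries. With a replicate block 5932 genes were called and no call on a member changed. Same-numbered libraries deviated together with correlations of 0.247, 0.0735 and 0.263, and each inhibitor library correlated best with its own number, which is a hint from the data and not from the design, so the numbers were not taken as pairs. Depth limits Cdkn1c (16 reads in each group) and the DMSO level of Cdkn2b (41 reads) most.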
